A study of Mus musculus with 16 samples.

Results

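Erysipelotrichaceae, Erysipelatoclostridiaceae, Acholeplasmataceae and the order RF39 were followed through the stool bacteria of mice. Their members were all sequence variants (ASVs, each a distinct 16S amplicon sequence) that the deposited taxonomy places in 1 of the 3 families or in RF39. This gave 42 of 1330 ASVs, with 49433 of 948231 reads, or 5.21%. Of these, Erysipelotrichaceae had 12 ASVs and 3.11% of all reads, Acholeplasmataceae 2 ASVs and 1.44%, Erysipelatoclostridiaceae 7 ASVs and 0.577%, and RF39 21 ASVs and 0.0920%. ASVs carry numbers in the order of their total reads, so that asv7 is among the most abundant of the whole table.

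The study profiled stool DNA of wild-type (WT) mice and of mice with a knock-out (KO) of Msc, the gene of the transcriptional repressor musculin, by sequencing 16S rRNA amplicons that span variable regions V3 and V4. It had 4 groups of 4 libraries. Healthy WT and healthy KO mice were sampled at time point 0, and WT and KO mice at time point 1, with colitis induced by DSS (dextran sulfate sodium, a polymer that injures the colon epithelium). The comparisons answer which taxa differ with the knock-out in healthy and in colitic mice, and which differ with colitis in each genotype. The labels give condition and time point together, so that colitis and time cannot be told apart. They name no strain, age, sex or cage of the mice and do not say whether a replicate number (0 to 3) is the same animal at both time points. Cage and genotype therefore cannot be told apart, and p-values measure only the spread between these samples.

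Erysipelotrichaceae and Erysipelatoclostridiaceae are families of anaerobic, mostly gram-positive bacteria of the gut. Turicibacter, which the deposited taxonomy places in Erysipelotrichaceae, lives in the small and large intestine of mice, deconjugates bile acids and responds to host serotonin. Erysipelatoclostridium holds spore-forming anaerobes that were formerly counted among the clostridia. Acholeplasmataceae, with Anaeroplasma, are wall-less bacteria related to the mycoplasmas, and Anaeroplasma is a strict anaerobe first known from the rumen. RF39 is an order without cultured members, known from sequences of animal guts.

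The libraries held 49253 to 70577 reads, and 3 reads, taken here as the floor of detection, correspond to 0.00425% to 0.00609% of a library. Shares of single libraries carry 95% Wilson intervals where given, and these and the floor cover counting error only. WT DSS replicate 1 stood apart, with 844 ASVs (172 to 280 in the others) and 711 ASVs found in it alone. Of those 711, 2 were members, both of RF39 (asv1000 with 7 reads and asv1225 with 3 reads), and results that rest on this library are given without it where that changes a call. Between pairs of replicates of 1 group, chi-square divided by its degrees of freedom was 28.0 to 141, so no pair differed as little as counting error alone would give.

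Together the 4 taxa made up 5.14% ± 0.478 of reads in WT healthy mice (SD, n = 4), 7.35% ± 3.37 in KO healthy mice, 5.56% ± 1.39 in WT DSS mice and 3.10% ± 0.223 in KO DSS mice. The KO DSS libraries were the most alike, between 2.82% and 3.34%. The KO healthy libraries spread most, from 2.93% in replicate 0 to 10.6% in replicate 2, and overlapped with all 3 other groups.

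**Figure D1:**
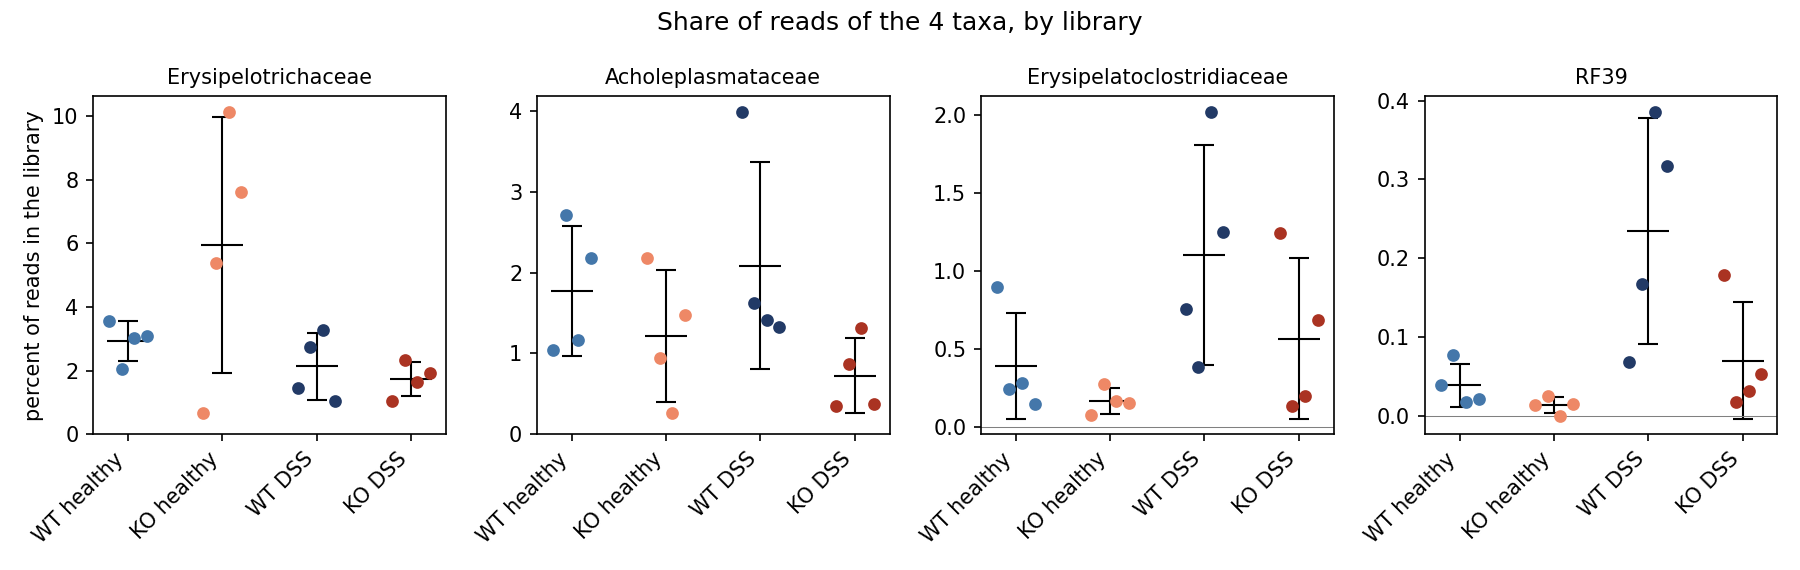
Percent of reads (vertical axis) of Erysipelotrichaceae, Acholeplasmataceae, Erysipelatoclostridiaceae and RF39 in the 16 libraries, 1 point per library, with the group mean and SD as bars. Erysipelotrichaceae ranges from 0.653% to 10.1% within KO healthy mice, and RF39 is highest in WT DSS mice, up to 0.386%.

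Erysipelotrichaceae consisted almost entirely of Turicibacter. Its main variant asv7 held 92.6% of the family's reads and was found in all 16 libraries. In WT healthy replicates 0 to 3, Turicibacter made up 3.36%, 1.81%, 2.92% and 3.01% of reads. In KO healthy replicates 0 to 3 it made up 0.560%, 5.24%, 10.1% and 7.39%. Of the KO healthy libraries, 3 thus lay above every other library of the study, while replicate 0 lay below all of them, with 324 Turicibacter reads. In WT DSS mice the shares were 1.42%, 2.74%, 3.06% and 0.949%, and in KO DSS mice 0.809%, 2.25%, 1.54% and 1.87%, so that the DSS groups overlapped with each other.

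In KO mice Turicibacter fell with DSS, from a mean of 5.81% ± 4.02 to 1.62% ± 0.614 (SD, n = 4 each), 3.59-fold lower. The log2 fold change in the edgeR fit over 66 genera was -1.85 ± 0.64 (SE, adjusted p = 0.0309), and 34.8% of all tested genera passed the threshold of 0.05 in this comparison. The family as a whole fell from 5.95% ± 4.03 to 1.74% ± 0.537, which is 3.42-fold less (log2 -2.28 ± 0.62 SE, among 26 families with adjusted p = 0.00628, of which 50% passed). KO healthy replicate 0 lay below every KO DSS library, so the groups overlapped. Without KO healthy replicate 2, the highest library, neither passed (Turicibacter -1.32, adjusted p = 0.133; family -1.34, adjusted p = 0.0987). The genus call was also lost without KO healthy replicate 3 (-1.83, adjusted p = 0.0554) and without KO DSS replicate 0 (-1.95, adjusted p = 0.0882), 2 (-2.05, adjusted p = 0.0724) or 3 (-2.19, adjusted p = 0.0556). With all 16 libraries it was lost with limma (-1.70, adjusted p = 0.0918), without a filter (-1.50, adjusted p = 0.219), with only the groups compared (-2.06, adjusted p = 0.0520) and with the replicate block (-1.35, adjusted p = 0.165). The main variant asv7 did not pass among ASVs (-1.74 ± 0.70 SE, adjusted p = 0.0729).

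The other comparisons of Turicibacter did not pass in edgeR. In healthy mice its mean was 2.10-fold higher in KO than in WT (log2 1.42 ± 0.63 SE, adjusted p = 0.200), and without KO healthy replicate 0 this passed (1.80, adjusted p = 0.0216). Under DSS the difference was -0.60 ± 0.62 on the log2 scale (SE, adjusted p = 0.558). In WT mice the mean went from 2.78% ± 0.672 to 2.04% ± 1.02, while the TMM-scaled log2 value was 0.17 ± 0.62 (SE, adjusted p = 0.925), so no direction is given. The interaction, meaning how far the KO against WT difference under DSS departs from the one at time point 0, was -2.02 ± 0.88 on the log2 scale (SE, adjusted p = 0.235), and -2.40 without KO healthy replicate 0 (adjusted p = 0.0387). For the family, the KO against WT difference in healthy mice was 1.70 ± 0.60 (SE, adjusted p = 0.0517), and it dropped to 0.46 in the lowest of the fits that each left out 1 library.

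A second Turicibacter variant, asv91, accompanied asv7 in 10 libraries. There it held between 3.55% and 6.30% of Turicibacter reads, with a median of 3.93%. In WT healthy replicates 0 to 3 it had 98, 43, 70 and 71 reads beside 1914, 848, 1806 and 1927 of asv7. In KO healthy replicates 1 to 3 it had 102, 214 and 156 reads beside 2563, 5454 and 3950. In WT DSS replicates 0 to 2 it had 54, 75 and 71 reads beside 803, 1528 and 1689. The other 6 libraries held no read of it: KO healthy replicate 0 (324 Turicibacter reads), WT DSS replicate 3 (631) and all 4 KO DSS libraries (571, 1315, 852 and 1134). KO DSS replicates 1 and 3 had more Turicibacter reads than WT DSS replicate 0, which held its 54 reads of asv91 among 857. In the sum of the KO DSS libraries, 0 of 3872 Turicibacter reads allow a share of up to 0.0775%, against 4.12% in WT DSS (200 of 4851 reads) and 3.70% in KO healthy (472 of 12763 reads).

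asv91 fell in KO mice with DSS and was lower in KO than in WT mice under DSS. Its mean share of all reads was 0.215% ± 0.161 in KO healthy and 0.0852% ± 0.0593 in WT DSS libraries (SD, n = 4 each). Against the share that 3 reads give in each KO DSS library, this is at least 43.6-fold lower with DSS (edgeR adjusted p = 0.00739, 28.9% of 308 ASVs passed) and at least 17.2-fold lower than in WT DSS mice (adjusted p = 0.0173, 14.9% passed). In both comparisons the groups overlapped, through the single library at 0 in the higher group, and the calls were kept without each of the 8 libraries in turn. The genotype effect also differed between conditions (log2 -10.17 with 1 group at 0, adjusted p = 0.0468, 5.52% of ASVs passed), but this call was lost without 14 of the 16 libraries in turn. As a share of Turicibacter reads, asv91 had a difference between KO DSS and WT DSS means of -3.75 percentage points (two-sided exact permutation test, p = 0.143, adjusted p = 0.229 over 8 such tests). That ratio was chosen after the values were seen, and 70 relabellings allow no p below 0.0286. The remaining Turicibacter variant, asv694, had 15 reads, all in KO DSS replicate 3.

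**Figure D2:**
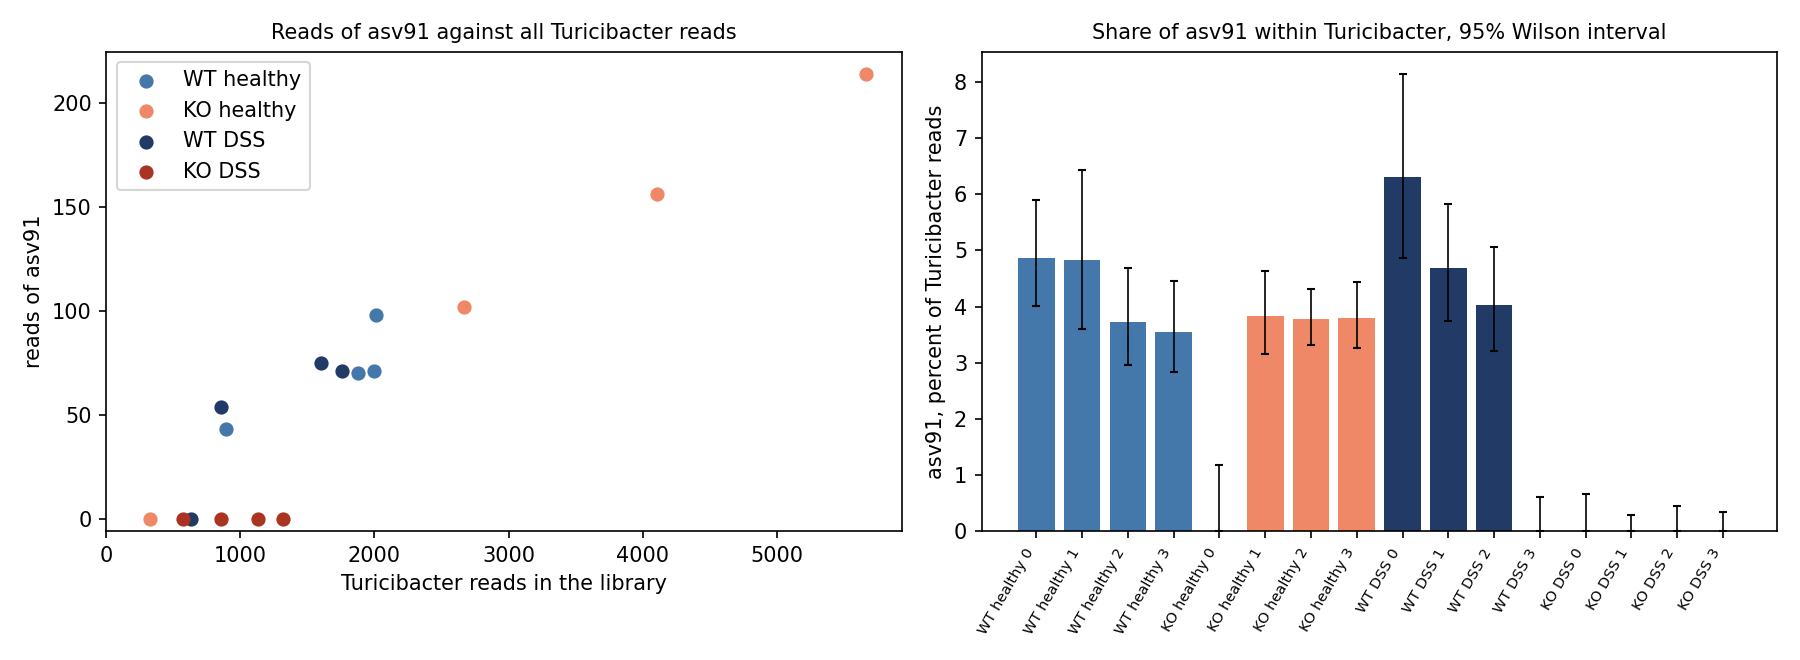
Left, reads of asv91 against all Turicibacter reads, 1 point per library, coloured by group. Right, asv91 as percent of Turicibacter reads in each of the 16 libraries, labelled by group and replicate number, with 95% Wilson intervals. The 10 libraries with asv91 lie between 3.55% and 6.30%, and the 4 KO DSS libraries are at 0.

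The remaining Erysipelotrichaceae were rare and without a genus of their own. Unclassified Erysipelotrichaceae (8 variants) had means of 0.127% (WT) and 0.131% (KO) in healthy mice and of 0.0877% (WT) and 0.109% (KO) under DSS, and no comparison passed (smallest edgeR adjusted p = 0.895). Its most abundant variant, asv123, was found in all 16 libraries, between 0.0121% in KO healthy replicate 0 and 0.150% in WT healthy replicate 0. The other 3 tested variants came and went between libraries. asv238 (7 libraries) was found in all 4 KO DSS libraries but in 1 of 4 WT DSS libraries, asv243 in 6 libraries, and asv295 in 2 WT healthy and 2 KO healthy libraries but in no DSS library. For none of these 3 did a comparison pass in the edgeR fit (smallest adjusted p = 0.0765, for asv295 with DSS in KO mice).

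asv277, which carries the family name at genus rank, was found in all 4 WT healthy libraries, at 0.0535%, 0.0487%, 0.0171% and 0.00603%. Only 1 of 4 KO healthy libraries held it, with 5 reads in replicate 1. The KO against WT difference in healthy mice was -3.35 ± 1.57 on the log2 scale (SE, edgeR adjusted p = 0.239 among ASVs). With DESeq2 (-3.71, adjusted p = 0.0433) and with limma (-3.52, adjusted p = 0.0381) it passed. At genus rank the same reads did not pass in edgeR (-3.38, adjusted p = 0.169). They passed there without KO healthy replicate 1 (-7.09, adjusted p = 0.0281), which leaves KO healthy mice without a read. Under DSS, 3 of 4 WT and 4 of 4 KO libraries held asv277.

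Acholeplasmataceae was 1 abundant variant, asv11 of Anaeroplasma, with 13625 of the family's 13629 reads. The other variant, asv1161 of Acholeplasma, had 4 reads in KO healthy replicate 2. Anaeroplasma made up 1.05%, 2.71%, 1.17% and 2.18% of reads in WT healthy replicates 0 to 3 and 2.19%, 0.949%, 0.254% and 1.47% in KO healthy replicates 0 to 3. These groups overlapped widely. In WT DSS replicates it made up 3.99%, 1.62%, 1.41% and 1.33%, and in KO DSS replicates 0.346%, 0.864%, 1.32% and 0.370%. Every WT DSS library lay above every KO DSS library, but the lowest WT DSS library (1.33%) and the highest KO DSS library (1.32%) were nearly equal. WT DSS replicate 0, at 3.99%, was the highest of the 16.

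Under DSS the KO mean of Anaeroplasma, 0.724% ± 0.462, was 2.88-fold below the WT mean of 2.09% ± 1.28 (SD, n = 4 each). The difference did not pass in edgeR, with -1.77 ± 0.65 among genera (SE, adjusted p = 0.0795), -1.43 ± 0.63 among families (adjusted p = 0.132) and -1.79 ± 0.61 among ASVs (adjusted p = 0.0606). Among genera it passed with TMMwsp factors (-2.09, adjusted p = 0.0261) and without KO DSS replicate 2 (-2.07, adjusted p = 0.0454). Among ASVs it passed with 2 of 9 alternative settings, TMMwsp factors (-1.87, adjusted p = 0.0499) and DESeq2 (-1.84, adjusted p = 0.0147). With DSS, the change was 0.80 ± 0.63 in WT mice (SE, adjusted p = 0.383) and -0.69 ± 0.63 in KO mice (adjusted p = 0.374), and their difference did not pass (-1.49 ± 0.90, adjusted p = 0.371). For KO against WT in healthy mice the sign depended on the fit (-0.29 among genera, 0.16 among families), and neither passed.

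**Figure D3:**
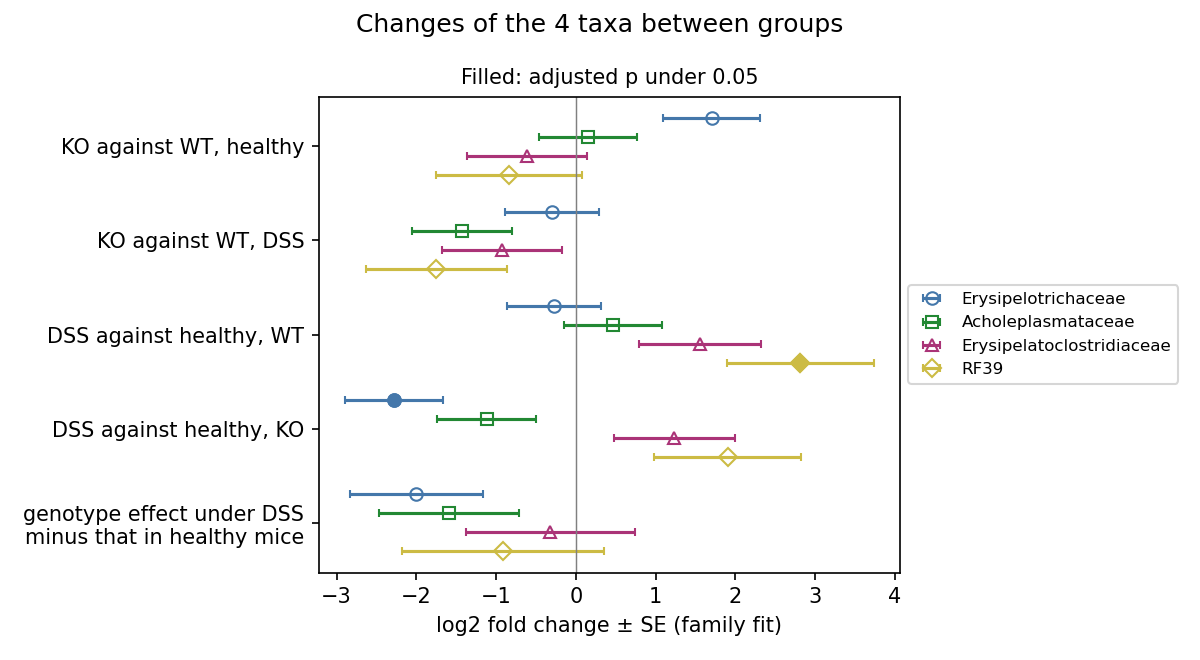
Log2 fold change (horizontal axis) with its standard error for Erysipelotrichaceae, Acholeplasmataceae, Erysipelatoclostridiaceae and RF39 in each of 5 comparisons, from the edgeR fit over 26 families. Filled symbols mark an adjusted p under 0.05: RF39 with DSS in WT mice (2.81) and Erysipelotrichaceae with DSS in KO mice (-2.28).

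Erysipelatoclostridiaceae was mostly Erysipelatoclostridium, with the variants asv31 (72.8% of the family's reads) and asv66 (25.6%). The genus made up 0.896%, 0.246%, 0.281% and 0.152% of reads in WT healthy replicates 0 to 3 and 0.0812%, 0.279%, 0.167% and 0.149% in KO healthy replicates 0 to 3. Under DSS it made up 0.757%, 0.389%, 2.01% and 1.24% in WT and 1.17%, 0.129%, 0.202% and 0.676% in KO mice. The highest values were thus in DSS libraries, but every pair of groups compared overlapped. With DSS the mean was 2.79-fold higher in WT mice (log2 2.09 ± 0.87 SE, edgeR adjusted p = 0.0999) and 3.21-fold higher in KO mice (1.76 ± 0.86, adjusted p = 0.120), and neither passed. The WT change passed with DESeq2 (1.95, adjusted p = 0.0493), with TMMwsp factors (2.31, adjusted p = 0.0378), with limma (2.46, adjusted p = 0.0293) and without WT healthy replicate 0 (3.06, adjusted p = 0.0310).

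Within the genus, the 2 main variants were found in different proportions. In WT DSS replicates 0 to 3, asv31 had 458, 203, 999 and 813 reads and asv66 had 0, 25, 151 and 8. In KO DSS replicates 0 to 3, asv31 had 337, 9, 58 and 45 reads and asv66 had 488, 66, 54 and 364. asv66 therefore held 59.2%, 88.0%, 48.2% and 89.0% of Erysipelatoclostridium reads in KO DSS libraries, against 0%, 10.96%, 13.1% and 0.974% in WT DSS libraries. In WT healthy libraries it held 33.8%, 25.6%, 7.73% and 6.93%, and in KO healthy libraries 10.6%, 4.23%, 0% and 0%. Every KO DSS library lay above every other library in this ratio, which depends on the reads of asv31 as well as those of asv66. As a share of all reads, asv66 overlapped between the DSS groups, from 0.0974% to 0.691% in KO and from 0% to 0.262% in WT libraries. For asv66, KO against WT under DSS did not pass in edgeR.

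asv66 rose in KO mice with DSS, from 0.00511% ± 0.00604 to 0.376% ± 0.315 of reads, 73.5-fold (log2 6.19 ± 1.97 SE, edgeR adjusted p = 0.0299, 28.9% of ASVs passed), with no overlap between groups. The healthy mean rests on 11 reads, and the call was lost without KO healthy replicate 0 (6.58, adjusted p = 0.0517), 2 (5.79, adjusted p = 0.0651) or 3 (6.06, adjusted p = 0.0533) and without KO DSS replicate 0 (5.71, adjusted p = 0.0544). Without KO healthy replicate 1 the log2 value was 7.17 and the call was kept (adjusted p = 0.0404). In WT mice asv66 did not pass with DSS (0.19 ± 1.56, adjusted p = 1), and the difference between the genotypes in this response did not pass (edgeR interaction, adjusted p = 0.174). Of 8 alternative settings, that difference passed with 1, DESeq2 (6.30, adjusted p = 0.0322). In healthy mice, asv66 did not pass for KO against WT in edgeR (-4.16, adjusted p = 0.184). There it passed with 1 of 9 alternative settings, DESeq2 (-4.39, adjusted p = 0.04995). asv31 was lower in KO than in WT mice under DSS by a log2 of -2.83 ± 0.96 (SE), which did not pass in edgeR (adjusted p = 0.0606). It passed without KO DSS replicate 0 (-4.34, adjusted p = 0.0106). Of 9 alternative settings, it passed with 2, DESeq2 (-2.83, adjusted p = 0.0105) and limma (-3.70, adjusted p = 0.0129).

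As a share of Erysipelatoclostridium, asv66 averaged 71.1% ± 20.6 in KO DSS and 6.25% ± 6.72 in WT DSS mice (SD, n = 4 each). The difference of 64.8 percentage points had p = 0.0286 in a two-sided exact permutation test, the smallest that 70 relabellings allow, and an adjusted p of 0.114 over the 8 tests of this kind. KO healthy mice averaged 3.72% ± 5.03, a difference of 67.4 points from KO DSS (exact p = 0.0286, adjusted p = 0.114). The comparison was chosen after the values were seen.

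**Figure D4:**
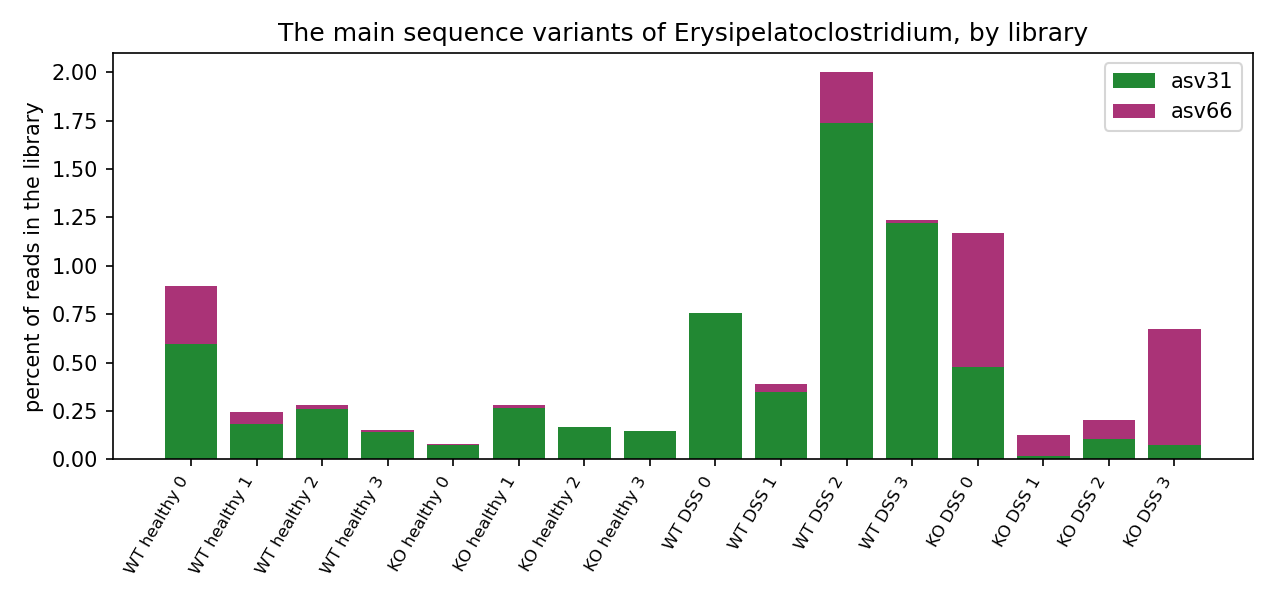
Stacked percent of reads (vertical axis) of the Erysipelatoclostridium variants asv31 and asv66 in each of the 16 libraries, labelled by group and replicate number. asv31 makes up most of the bar in the 4 WT DSS libraries, up to 1.74% of reads, and asv66 reaches 0.691% in KO DSS replicate 0.

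The other 5 variants of Erysipelatoclostridiaceae were each found in 1 group only. asv410, which carries the family name at genus rank, had 38, 4 and 8 reads in KO DSS replicates 0, 1 and 3. Candidatus Stoquefichus had 2 variants: asv690 with 15 reads in 2 WT DSS libraries and asv691 with 15 reads in KO DSS replicate 0. asv1101 of Erysipelatoclostridium had 6 reads in WT DSS replicate 2, and asv1277 of UCG-004 had 2 reads in KO healthy replicate 3. They were too rare to be tested.

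RF39 was the rarest of the 4 taxa and the richest in variants. It made up 0.0385%, 0.0772%, 0.0171% and 0.0211% of reads in WT healthy replicates 0 to 3. In KO healthy replicates 0 to 3 it made up 0.0138%, 0.0256%, 0% and 0.0144%, which for replicate 2 means 0 of 56328 reads and allows up to 0.00533%. In WT DSS replicates it made up 0.0678%, 0.167%, 0.386% and 0.317%, and in KO DSS replicates 0.179%, 0.0171%, 0.0307% and 0.0529%. WT DSS replicate 0 lay below WT healthy replicate 1, so these groups overlapped.

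RF39 rose in WT mice with DSS, from 0.0385% ± 0.0274 to 0.235% ± 0.144 (SD, n = 4 each), 6.10-fold. The log2 fold change was 2.81 ± 0.92 among families (SE, edgeR adjusted p = 0.0261, 26.9% of families passed) and 3.20 ± 1.05 among genera (adjusted p = 0.0323, 22.7% of genera passed). Among families the call was lost without WT healthy replicate 2 (2.61, adjusted p = 0.0889) or 3 (2.67, adjusted p = 0.0679) and without WT DSS replicate 2 (2.47, adjusted p = 0.0956) or 3 (2.66, adjusted p = 0.0560). Among genera it was also lost without WT healthy replicate 0 (3.24, adjusted p = 0.0702) or 1 (3.66, adjusted p = 0.0697). Without WT DSS replicate 1 it passed at both ranks (2.85, adjusted p = 0.0413; 3.41, adjusted p = 0.0397), and without WT healthy replicate 1 the family's log2 value was 3.47 (adjusted p = 0.0178). With all libraries the family call was lost with limma (2.46, adjusted p = 0.0647), without a filter (2.67, adjusted p = 0.220) and with the replicate block (2.76, adjusted p = 0.125). The genus call was lost without a filter (2.83, adjusted p = 0.171) and with the block (3.17, adjusted p = 0.158). Most of the WT DSS mean of RF39 came from 2 variants. asv171 averaged 0.135% of reads in WT DSS and 0% in WT healthy libraries, and asv199 0.0559% and 0.00457%. The third tested variant, asv286, averaged 0.0186% and 0.0160%. RF39 without asv171 was not tested.

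In KO mice the mean of RF39 went from 0.0135% ± 0.0105 to 0.0698% ± 0.0740, 5.19-fold higher, and did not pass (log2 1.90 ± 0.92 SE, edgeR adjusted p = 0.0943 among families; 2.51 ± 1.04, adjusted p = 0.0677 among genera). Among families it passed with total counts as the scale (2.37, adjusted p = 0.0465), with DESeq2 (1.81, adjusted p = 0.0453) and without KO healthy replicate 1 (2.80, adjusted p = 0.0342) or KO DSS replicate 1 (2.28, adjusted p = 0.0496). The difference between the genotypes in the response to DSS was -0.91 ± 1.27 (SE, adjusted p = 0.697). Under DSS the KO mean was 3.36-fold lower than the WT mean (log2 -1.75 ± 0.88 SE, adjusted p = 0.184). That difference passed without KO DSS replicate 0 (-3.02, adjusted p = 0.0448).

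Of the 21 RF39 variants, 13 (61.9%) were found in 1 group only, and 13 had under 10 reads in all. Of the ASVs outside the 4 taxa, 73.6% were found in 1 group only, and 98.8% of those with under 10 reads. With the ASVs found in WT DSS replicate 1 alone set aside, the shares were 57.9% for RF39, 41.3% for the others and 94.0% for the others under 10 reads. Of 10 RF39 variants found in WT DSS and 11 in KO DSS libraries, 3 were shared, 30% of the first and 27.3% of the second. Of the ASVs outside the 4 taxa, 180 were shared between these groups, 18.5% of 971 in WT DSS and 58.4% of 308 in KO DSS libraries. With the ASVs found in WT DSS replicate 1 alone set aside, a choice made after seeing the data, the shares were 37.5% and 27.3% for RF39 and 68.7% and 58.4% for those others. Among those others with under 10 reads, 1 was then shared, 5.26% of 19 in WT DSS and 4% of 25 in KO DSS libraries. WT healthy libraries held 9 RF39 variants and KO healthy libraries 2, with 1 shared (11.1% and 50%). Of the ASVs outside the 4 taxa, 253 were shared, 70.3% of 360 in WT healthy and 73.5% of 344 in KO healthy libraries. Among those with under 10 reads, 2 were shared, 10% of 20 and 8.33% of 24. Both WT groups held 5 RF39 variants (55.6% of those in WT healthy libraries), and 198 of the other ASVs (55%). The most abundant RF39 variant, asv171, had 11, 88, 103 and 127 reads in WT DSS replicates 0 to 3 and none in the other 12 libraries. It was at least 26.5-fold higher in WT DSS than in WT healthy mice (edgeR adjusted p = 0.00934, 17.2% of ASVs passed) and at least 27.2-fold lower in KO DSS than in WT DSS mice (adjusted p = 0.0132, 14.9% passed), without overlap. It met the filter of 5 reads in 4 libraries through WT DSS alone, the group where it is high, so the filter fixed the direction of both tests and they are given as a description. The call under DSS was lost with the replicate block (adjusted p = 0.0548).

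The second RF39 variant, asv199, lay mainly in 3 libraries: 95 and 39 reads in WT DSS replicates 2 and 3, and 104 in KO DSS replicate 0. WT healthy replicate 1 had 9 reads and KO DSS replicate 3 had 13. asv286 was the RF39 variant found in all 4 groups, with at most 18 reads in any of its 10 libraries. No comparison of asv199 or asv286 passed in edgeR (smallest adjusted p = 0.0735, for asv199 with DSS in KO mice). The other 18 RF39 variants had at most 30 reads each and were not tested.

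**Figure D5:**
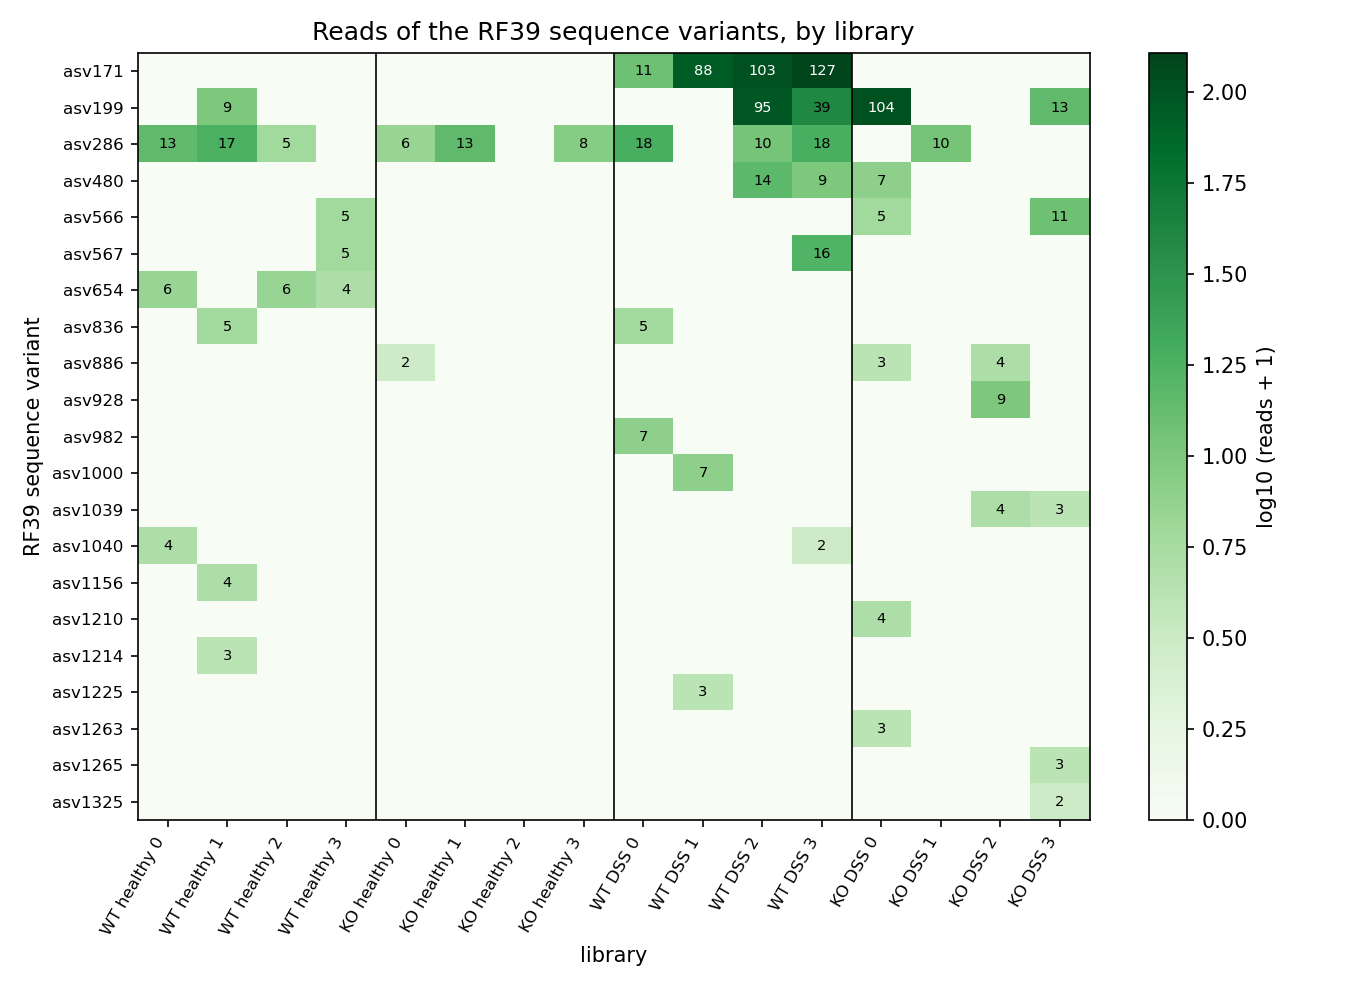
Reads of the 21 RF39 variants (rows, by total reads) in the 16 libraries (columns, labelled by group and replicate number), coloured by log10 (reads + 1), with the count written where it is above 0. asv171 has reads in the 4 WT DSS libraries alone, and KO healthy replicate 2 has no RF39 read.

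Counted over the members, few tests passed. Of the 4 families, 0 passed for KO against WT in healthy mice, 0 for KO against WT under DSS and 0 for the difference between these, where 11.5%, 11.5% and 15.4% of all 26 families passed. At an unadjusted p under 0.05, 1 member family passed in each of these 3 comparisons, and with DESeq2 1, 0 and 0 passed after adjustment. With DSS, 1 of 4 passed in WT and 1 of 4 in KO mice, where 26.9% and 50% of all families did. Of 6 tested genera, 1 passed with DSS in WT mice (22.7% of all 66 genera) and 1 in KO mice (34.8%). For the knock-out, 0 genera passed in healthy mice (6.06% of all 66), 0 under DSS (13.6%) and 0 for the difference (4.55%), with 2, 1 and 1 at an unadjusted p under 0.05 and 0 in each with DESeq2. Of 13 tested ASVs, 0 passed in healthy mice (7.14% of all 308 ASVs, 4 at an unadjusted p under 0.05, 2 with DESeq2), 2 under DSS (14.9%), 1 with DSS in WT mice (17.2%), 2 with DSS in KO mice (28.9%) and 1 for the difference (5.52%). The count under DSS holds asv171 beside asv91, and that with DSS in WT mice is asv171 itself. The 13 tested ASVs held 99.3% of the members' reads, and 29 were too rare.

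The median log2 fold change of the 4 families with DSS in WT mice was 1.01, beside 0.20 over all 26, and in KO mice 0.06 beside 0.76. For KO against WT under DSS it was -1.18 beside 0.00 over all 26 families. The medians with DSS pool values of both signs, in KO mice from -2.28 for Erysipelotrichaceae to 1.90 for RF39. For KO against WT under DSS all 4 values were negative, from -1.75 for RF39 to -0.30 for Erysipelotrichaceae, and none passed.

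Most member ASVs were sparse. Of the 42, 17 (40.5%) were found in 1 library only, compared with 866 of the 1288 other ASVs (67.2%), of which 709 lay in WT DSS replicate 1 alone. With the ASVs of that library alone set aside, the order turned, with 15 of 40 members (37.5%) and 157 of 579 others (27.1%). In all 16 libraries 4 were found: asv7, asv11, asv31 and asv123. A library held 8 to 17 member ASVs, the fewest in KO healthy replicate 2, which had the largest share of Turicibacter, and the most in KO DSS replicate 0. By group the means were 10.8 ± 1.71 (WT) and 9.75 ± 1.71 (KO) in healthy mice and 12.3 ± 3.20 (WT) and 12.5 ± 3.70 (KO) under DSS (SD, n = 4). At an equal depth of 49253 reads these means were 10.8, 9.74, 12.2 and 12.5. Of the 42 members, 23 (54.8%) were found in 1 group only, and of the other ASVs 948 (73.6%). With the same ASVs set aside this order turned too, with 21 of 40 (52.5%) and 239 of 579 (41.3%). Of the 23, 3 (23 reads) were in WT healthy, 4 (26 reads) in KO healthy, 6 (367 reads) in WT DSS and 10 (134 reads) in KO DSS libraries. The confidence of the taxonomic assignment was 0.732 to 1, and no member ASV carried the name of a cultured species.

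KO DSS replicate 0 recurred among the extremes. It had the most asv66 (0.691%), 104 of the 117 KO DSS reads of asv199, all KO DSS reads of asv243 (32), 38 of the 50 reads of asv410 and the lowest Turicibacter and Anaeroplasma shares of its group. It also held 4 member ASVs found in no other library, with 48 reads. It was the most deeply read library, with 70577 reads. At an equal depth of 49253 reads it held 16.96 member ASVs on average, still the most of any library.

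Across the 16 libraries, the genus whose shares ranked most like those of Turicibacter was Clostridium_sensu_stricto_1 (Spearman rho 0.72, Pearson r 0.94), a genus of spore-forming clostridia. Its mean was 0.735% ± 0.672 in KO healthy mice (SD, n = 4), with no read in KO healthy replicate 0, where Turicibacter was also lowest, and its highest value, 1.63%, in replicate 2, where Turicibacter was highest. Adlercreutzia (rho 0.51) and Lactobacillus (0.46) followed. The shares of RF39 ranked most like those of Parabacteroides (rho 0.95, r 0.84), a genus of Bacteroidales, and of Erysipelatoclostridium (0.84). Parabacteroides averaged 15.9% ± 2.58 (WT) and 7.35% ± 2.85 (KO) in healthy mice and 26.1% ± 4.43 (WT) and 18.0% ± 4.18 (KO) under DSS, and the RF39 means had the same order. For Anaeroplasma no genus ranked above a rho of 0.54 (unclassified Ruminococcaceae). These are descriptions over 16 libraries that share group differences and sum to the same total, with the 3 closest of 65 other genera taken for each.

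Related taxa gave a setting for these values, described by counts. Of the other orders of Bacilli, 2 genera were tested: Lactobacillus fell with DSS in WT mice, from 10.7% to 1.34% (log2 -2.34 ± 0.68 SE, edgeR adjusted p = 0.0193), and in KO mice, from 21.5% to 1.11% (-4.24 ± 0.74, adjusted p = 0.000299). Enterococcus rose in KO mice with DSS, from 0.0101% to 0.256% (4.88 ± 1.55, adjusted p = 0.0194). Of 6 listed genera with known bile salt hydrolases, enzymes that deconjugate bile acids, Lactobacillus and Turicibacter were tested. With DSS, 2 of 2 fell in KO mice (34.8% of all genera passed, in either direction) and 1 of 2, Lactobacillus, in WT mice (22.7%). The list does not hold every genus with such enzymes, and Enterococcus, which rose in KO mice, was not on it. These counts therefore describe the 2 tested genera only. The Turicibacter call was lost under the settings given with it. Of the wall-less genera, Anaeroplasma alone was tested, and 0 comparisons passed in edgeR. Of 3 tested genera that commonly bloom in gut inflammation, Escherichia-Shigella rose with DSS in both genotypes, to 4.85% in WT and 6.27% in KO mice, and Enterococcus in KO mice, while Mucispirillum did not pass (smallest adjusted p = 0.0579).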

How the data were processed

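Per the labels, the DNeasy PowerSoil Pro kit gave the stool DNA, and amplicons of V3 and V4 (primers 341F and 805R) were sequenced with a MiSeq instrument. Of tools, cutadapt is named in the submitters' processing notes. The denoiser, classifier and database are not given in the sources used here. Raw read counts per ASV and library stand in the deposited feature table, and the deposited taxonomy table gives the assignment confidence as a fraction. The labels spell the treatment DDS, read here as DSS from the series title.

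Counts were summed to 238 family and 340 genus labels. Features that reached 5 reads in 4 or more libraries (26 families, 66 genera and 308 ASVs) were tested in 1 fit of all 16 libraries with edgeR 4.0.16 (R 4.3.3), quasi-likelihood, TMM factors and Benjamini-Hochberg adjustment over all features of a rank. The tested ASVs held from 75.6% (KO DSS replicate 1) to 99.2% of a library's reads. A bound against a group at 0 takes 3 reads per library as the floor. Within-genus ratios had two-sided exact permutation tests (scipy 1.17.1). Alternatives were TMMwsp, RLE with poscounts, total counts, DESeq2 1.42.0, limma 3.58.1 on centred log-ratios (pseudocount 0.5), a filter of 20 reads or none, a fit of only the groups compared, a block by replicate number and leaving out each library. The fit was also run on simulated data. The changes planted there were larger than those of the member families and genera, so that run cannot tell how well such changes are found.

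The members, lists and tests were chosen with earlier results of these data known. Named taxa were all 4 taxa, their genera with reads, the 15 ASVs with most reads, ASVs past the threshold or above 50% of their family in any library, and the 3 genera closest by Spearman rho. ASVs named beyond these were chosen after their values were seen. No sequences are printed.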

Additional observations from a re-analysis of the deposited data

Results flagged for a closer look

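In groups of 4 libraries, the highest and the lowest library were judged by the gap to the nearest other one (Dixon's criterion at 95%). Of 79 groups of values, 11 held such a library. In 6 of the 11 the other 3 libraries had no read, and some of the 11 repeat the same values at several ranks, so this count cannot be read against the about 1 in 20 that chance gives. Anaeroplasma, which is its variant asv11 and, in these libraries, the whole of Acholeplasmataceae, was at 3.99% in WT DSS replicate 0, with the other 3 between 1.33% and 1.62%. asv66 of Erysipelatoclostridium was at 0.262% in WT DSS replicate 2. Of RF39, asv199 stood out at 0.0183% in WT healthy replicate 1 and at 0.147% in KO DSS replicate 0, and asv286 at 0.0171% in KO DSS replicate 1. Of Erysipelotrichaceae, asv238 was at 0.0765% in WT DSS replicate 2, asv243 at 0.0453% in KO DSS replicate 0, and asv277, the only variant of the genus label Erysipelotrichaceae, at 0.00984% in KO healthy replicate 1, which is 5 reads. For asv277, asv238, asv243, asv286 and the WT healthy value of asv199, the other 3 libraries of the group had no read, so the gap is the whole range.

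The effect of the knock-out on asv91 differed between conditions by a log2 of -10.17 (edgeR interaction, adjusted p = 0.0468). Reads were found in 4 of 4 WT healthy, 3 of 4 KO healthy, 3 of 4 WT DSS and 0 of 4 KO DSS libraries. The call was kept in only 2 of 16 fits that left out 1 library, and was lost with TMMwsp, limma and the replicate block. The size of the log2 value depends on the prior count, since KO DSS mice had no read.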

How the results depend on the processing

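The lower shares of asv91 in KO DSS mice against both other groups passed under all 9 alternatives and without each library in turn. The fall of Erysipelotrichaceae in KO mice with DSS passed under all 9 alternatives and without 7 of 8 libraries. Apart from the calls of asv171, whose direction the filter fixed, the other calls were lost under some setting, and the cause was not tested.

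Counts over the whole table, given as "of all", moved with the settings too. Member families past the threshold numbered 1 with DESeq2 for KO against WT in healthy mice (of all 26, 8 passed; 0 members in the edgeR fit). With DSS in WT mice they were 2 with DESeq2 (of all, 12) and 0 with limma (6), without a filter (7 of all 238) or with the replicate block (4), against 1 in the edgeR fit. With DSS in KO mice they were 2 with total counts (of all, 16) or DESeq2 (15), against 1 in the edgeR fit. Member genera were 1 with TMMwsp factors for KO against WT under DSS (of all 66, 14), against 0. For DSS in WT mice they were 2 with TMMwsp (of all, 17), DESeq2 (20) or limma (22) and 0 without a filter (21 of all 340) or with the block (11), against 1. For DSS in KO mice they were 2 with DESeq2 (of all, 29) and 0 with limma (21), no filter (15 of all 340), only the groups compared (22) or the block (18), against 1. Member ASVs were 2 with DESeq2 (of all 308, 38) and 1 with limma (49) in healthy mice, against 0. For KO against WT under DSS they were 4 with DESeq2 (of all, 59) and 1 with a filter of 20 reads (37 of all 209) or the block (32), against 2. For DSS in WT mice they were 2 with DESeq2 (of all, 73) or limma (85) and 0 with the filter of 20 reads (45), which removes asv171, against 1. For DSS in KO mice they were 4 without a filter (94 of all 1330), against 2. For the interaction they were 0 with TMMwsp (of all, 4) or the block (6) and 3 with DESeq2 (42), against 1.

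With each library left out, the families ranged from 0 to 1 under DSS and from 0 to 2 with DSS in either genotype. The genera ranged from 0 to 1 in healthy mice, under DSS, with DSS in WT mice and for the interaction, and from 0 to 2 with DSS in KO mice. The ASVs ranged from 2 to 3 under DSS, from 1 to 3 with DSS in KO mice and from 0 to 1 for the interaction.

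Signs turned in 17 instances, for values that did not pass in any of them. For Acholeplasmataceae, KO against WT in healthy mice (0.16) was -0.029 with TMMwsp, -0.55 with total counts, -0.30 without a filter, -0.040 with the filter of 20 reads and -0.17 with only the groups compared, and -1.14 to 0.10 with a library left out. The Erysipelatoclostridiaceae interaction (-0.32) was 0.23 with total counts and -1.17 to 0.43 with a library left out. With a library left out, Erysipelatoclostridiaceae in healthy mice ranged from -1.47 to 0.24, the RF39 interaction from -1.89 to 0.30 and the asv238 interaction from -7.36 to 0.43. With DSS in WT mice, Acholeplasmataceae then ranged from -0.0041 to 0.75 and Erysipelotrichaceae from -0.55 to 0.0089.

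Over all families, total counts moved the median log2 fold change by -0.70 for KO against WT in healthy mice and by 0.51 for DSS in KO mice. Over all ASVs, calls in healthy mice numbered 22 in the edgeR fit, 7 with the block and 49 with limma, and for the interaction 17, 4 with TMMwsp and 47 with limma. Among families, calls in healthy mice were 3 and 8 with DESeq2, and calls under DSS were 3, 0 with total counts and 6 without a filter. Same-numbered libraries did not deviate together (correlations from -0.152 to 0.0937, own number highest in 4 of 16 cases). These cases pool pairs across genotypes, which cannot be 1 animal, with pairs across time points. With 4 libraries per group they cannot tell whether a number is the same animal at both time points. Depth limits the rare variants: a group sum of 11 reads, as for asv66 in KO healthy mice, sets the size of its fold.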
